A study of Arabidopsis thaliana with 4 samples.

Results

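The genes described here are the nuclear genes of Arabidopsis thaliana that cover more than 8000 bp of the genome, introns included, in the reference annotation TAIR10.1. A gene was taken when a probe set of the array was paired with it and with no other gene, and where several probe sets qualified the one with the highest mean over the 4 arrays was used. This gave 123 genes of the 16348 nuclear genes measured in that way, and 317 nuclear genes of the reference exceed 8000 bp in all. The length limit was proposed after long genes had been seen to read lower in the mutant, so the difference of the whole set is a description and carries no test.

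Seeds of the mutant wrky43-1 were set against seeds of the wild type Ler-0, with 2 biological replicates of each genotype and 1 array per replicate. Both genotypes had the same treatment: 10 mg of dry seeds stood in liquid 0.5 MS, a nutrient medium for plants, and 2 µM abscisic acid (ABA) was present over all 4 days. ABA is the hormone that keeps seeds from germinating. WRKY43 is a transcription factor of the WRKY family, which binds DNA through a zinc-finger domain. The labels name 1 mutant allele, and 0 probe sets were paired with WRKY43 itself, so the mutated gene gives no check of the genotype labels. Of 13 seed markers 5 were measured: the storage protein gene PAP85, the oleosin gene OLEO3, the late embryogenesis gene M17 and the seed regulator EEL, listed at 7.17 to 12.89 on all arrays, and AT1G03890, listed at 5.45 to 6.84. Of the markers of green seedlings and root hairs LHCB4.1 is listed at 8.47 to 8.99, PRK at 3.53 to 5.05, and the expansin genes EXPA7 and EXPA18 at 2.62 to 3.24. Values are as deposited, on a scale read as log2. A probe set's value also depends on how well it hybridises, so values of different genes are not compared as amounts of RNA. In RNA of whole seeds, fewer cells of a type and less RNA per cell cannot be told apart.

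Plant genes are compact, and a gene of this length usually has many exons and encodes a very large protein. Among such proteins are scaffolds, molecular motors and multi-domain enzymes of basic cell functions. Examples are large subunits of RNA polymerases, ATPases that move nucleosomes, partners of the TOR growth kinase, and tethers and coats of the vesicle system. All 123 genes are protein coding in the reference. Of them 33 are treated here as named, and 90 have only a locus code. Among the 33 is AT5G24740, which is listed by its locus code and is called SHRUBBY here. A role is stated below only for named genes. No sequence is shown, since the reference tables used here hold none.

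In wrky43-1, 113 of the 123 long genes read lower than in wild type (52.5% of all nuclear genes did), and 10 read higher. The median log2 difference was -0.47, with quartiles of -0.65 and -0.29, against a median of -0.01 over all nuclear genes. For 102 of the 123 both wrky43-1 arrays lay below both wild-type arrays, which held for 25% of all nuclear genes, and for 3 both lay above, which held for 21.7%. The arrays of the genotypes overlapped for the other 18. A log2 difference under -0.5 was found for 53 of the long genes (3.16% of all nuclear genes), and one under -1 for 5 of them and for 28 nuclear genes in all.

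Of the seed markers 5 of the 5 measured read lower in wrky43-1 (52.5% of all nuclear genes did), with a median log2 difference of -0.19. For 4 of them there was no overlap, where 25% of all nuclear genes read lower without overlap. AT1G03890 read 5.56 and 5.45 in wrky43-1, against 6.84 and 6.75 in wild type (log2 difference -1.29, SE 0.12, limma adjusted p = 0.144). M17 read 10.15 and 10.28 in wrky43-1, against 10.73 and 10.69 in wild type (log2 difference -0.50, SE 0.12, limma adjusted p = 0.218). PAP85 had -0.19, OLEO3 -0.09 and EEL, which overlapped, -0.06. The log2 of the seed markers' summed linear values was 12.98 and 13.07 in wrky43-1 and 13.29 and 13.24 in wild type, and 0 of the 5 markers is a long gene. Of 8 markers of green seedlings and 6 of root hairs, 2 each were measured. LHCB4.1 (log2 difference -0.35) and EXPA7 (-0.21) read lower without overlap. PRK (0.67, SE 0.48) and EXPA18 (0.18, SE 0.19) read higher, and the arrays of the genotypes overlapped for both. The part of the seed markers' shift in that of the long genes was not tested.

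No long gene passed the threshold of the fit across all 38408 probe sets (0 higher and 0 lower in limma at a Benjamini-Hochberg adjusted p under 0.05; 0% of nuclear genes passed in either direction, and the smallest adjusted p among the long genes was 0.157, above the 0.144 of the seed marker AT1G03890). At an unadjusted p under 0.05, 78 of the 123 were lower and 0 higher, where 6.1% of all nuclear genes were lower and 5.45% higher. At an unadjusted p under 0.01, 42 were lower (1.42% of all nuclear genes) and 0 higher (1.15%). The long genes make up 0.752% of the nuclear genes measured, and they were 7.82% of those lower at an unadjusted p under 0.05 and 18.1% of those lower at 0.01. Without wild-type replicate 2 the count at an unadjusted p under 0.05 was 45 in place of 78. When limma's variance prior followed the intensity, 4 long genes passed the adjusted threshold as lower and 0 as higher. They were AT4G36080, AT2G45540, AT1G02080 and AT3G50370. In the same setting 10 nuclear genes in all passed as lower (0.0612%) and 7 as higher (0.0428%), and of the 38408 probe sets 30 passed as lower and 74 as higher.

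**Figure D1:**
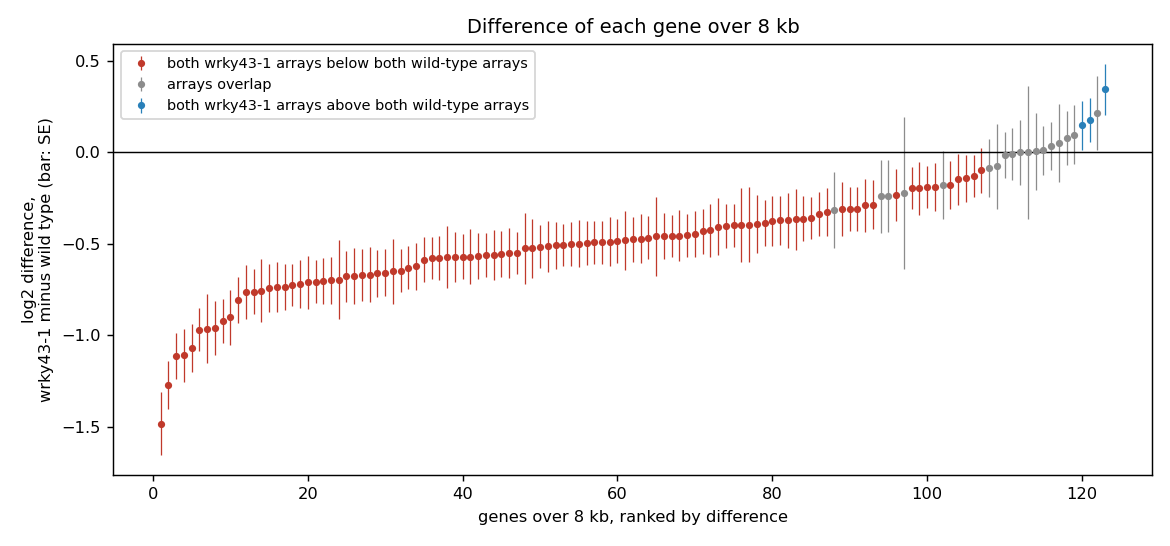
The vertical axis is the log2 difference of each of the 123 genes over 8 kb, wrky43-1 minus wild type, and the horizontal axis their rank; bars are the limma SE, and colours show whether the 2 arrays of each genotype overlap. Of the 123 genes 102 have both wrky43-1 arrays below both wild-type arrays, and the differences run from -1.48 to 0.34.

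The shift was present on each array. The median over the 123 genes was 6.89 and 6.90 on the wrky43-1 arrays, and on the wild-type arrays it was 7.43 and 7.50. Over all nuclear genes the array medians were 3.91 and 3.88 in wrky43-1 and 3.89 and 3.90 in wild type. Each wrky43-1 array set against each wild-type array gave a median difference of the long genes between -0.52 and -0.42. Within a genotype the median difference of replicate 2 minus replicate 1 was -0.01 in wrky43-1 and 0.09 in wild type. The same within-genotype difference over all nuclear genes was 0.003 in wrky43-1 and 0.002 in wild type. The 2 wild-type arrays thus differed for long genes by more than for nuclear genes as a whole, and by much less than the genotypes did. The median SD between replicates of a long gene was 0.073 in wrky43-1 and 0.082 in wild type (n = 2 each), and over all nuclear genes it was 0.11 in wrky43-1 and 0.10 in wild type. These sets differ in level, with a median of 7.21 for long genes and 3.88 for all nuclear genes. Above a level of 7 the median SD of long genes was 0.057 in wrky43-1 and 0.066 in wild type. For genes of 1000 to 2000 bp above 7 it was 0.077 in wrky43-1 and 0.061 in wild type.

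The gene with the largest negative difference, AT5G23110, spans 17576 bp and read 6.64 and 6.29 in wrky43-1, against 7.88 and 8.02 in wild type. This is a 2.79-fold lower value in wrky43-1 (log2 difference -1.48, SE 0.17, limma adjusted p = 0.157). AT4G36080, of 18261 bp, read 6.17 and 5.99 in wrky43-1 and 7.37 and 7.33 in wild type, a log2 difference of -1.27 (SE 0.13). For both the gap between the genotypes is wider than that between replicates, and neither gene has a name in the reference. AT1G48090, the longest of the set with 26499 bp, read 6.62 and 6.51 in wrky43-1 and 7.63 and 7.73 in wild type (log2 difference -1.11, SE 0.12). AT2G17930 read 7.86 and 7.94 against 8.89 and 9.14 in wild type, and AT3G50370 read 9.22 and 9.04 against 10.15 and 10.24. These 5 genes are the ones that differed by more than 1, and at -1.07 AT3G50370, of only 8380 bp, is among them.

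The next in order were AT1G02080 (log2 difference -0.97), AT3G24880 (-0.96), RAPTOR1 (-0.96), AT2G45540 (-0.92) and AT5G24740 (-0.90), with SEs of 0.12 to 0.19. AT5G24740 is SHRUBBY, a gene for a VPS13-like protein, a family that transfers lipids between membranes. AT1G02080 also has one of the highest readings of the set, 9.25 and 9.18 in wrky43-1 and 10.17 and 10.20 in wild type. Of these 10 genes AT3G24880 varied most between the mutant replicates, at 6.56 and 6.99, against 7.75 and 7.72 in wild type. The 10 were taken from the genes without overlap between the genotypes.

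Among genes for growth signalling and translation control, all 3 read lower, as did 91.9% of all 123 long genes. Their median log2 difference was -0.72. RAPTOR1 and RAPTOR2 encode the partner that presents substrates to the TOR kinase, which couples growth to nutrients. RAPTOR1 read 8.16 and 8.29 in wrky43-1, against 9.07 and 9.30 in wild type, a log2 difference of -0.96 (SE 0.15). RAPTOR2 read 6.04 and 5.85 in wrky43-1, against 6.66 and 6.67 in wild type, a log2 difference of -0.72 (SE 0.13). Both paralogues were lower on every mutant array, and whether their probes tell them apart was not tested. ILA, the homologue of yeast GCN1, which helps the kinase GCN2 to slow translation, read 8.66 and 8.68 in wrky43-1 and 9.24 and 9.42 in wild type (log2 difference -0.66, SE 0.13).

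All 7 named genes for transcription and chromatin read lower, with a median of -0.55. For 6 of them the genotypes did not overlap (85.7%, against 82.9% of all 123 long genes). DME encodes the DNA glycosylase DEMETER, which removes methylated cytosine and sets up imprinting in the endosperm. It read 7.60 and 7.65 in wrky43-1, against 8.33 and 8.44 in wild type, a log2 difference of -0.76 (SE 0.12) and a 1.69-fold lower value in the mutant. The nucleosome-moving ATPases INO80 and ATRX had nearly equal differences of -0.55 and -0.55, with INO80 at 8.26 and 8.29 in wrky43-1 and at 8.83 and 8.82 in wild type. ATRX read 6.66 in both wrky43-1 replicates and 7.13 and 7.30 in wild type. NERD, a factor of RNA-directed DNA methylation, had a log2 difference of -0.63.

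The 3 RNA polymerase subunits differed less, between -0.36 and -0.18. NRPA1, the largest subunit of RNA polymerase I, which makes ribosomal RNA, read 7.30 and 7.36 in wrky43-1 and 7.66 and 7.72 in wild type. NRPC2, the second largest subunit of RNA polymerase III, had a log2 difference of -0.34. NRPC1, the largest subunit of RNA polymerase III, read 6.73 and 6.46 in wrky43-1 and 6.61 and 6.94 in wild type, so its genotypes overlapped. Of the DNA replication and repair genes, ICU2, the catalytic subunit of DNA polymerase alpha, read 6.80 and 6.84 in wrky43-1 and 7.56 and 7.50 in wild type (log2 difference -0.71, SE 0.12). The helicase gene RECQ4B, at -0.24, overlapped.

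**Figure D2:**
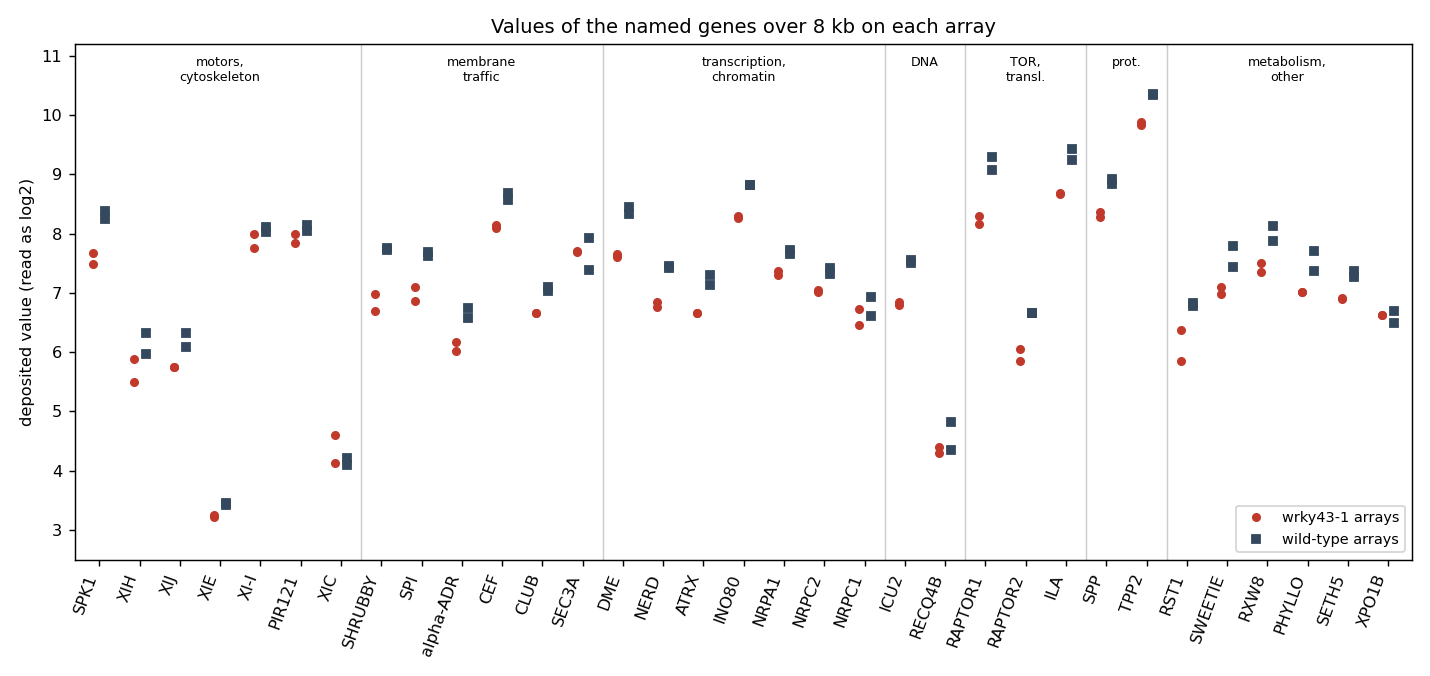
Deposited values (vertical axis, read as log2) of the 33 named genes over 8 kb on each array, grouped by role, with the wrky43-1 arrays as circles on the left and the wild-type arrays as squares on the right of each gene. RAPTOR1 reads 8.16 and 8.29 in wrky43-1 and 9.07 and 9.30 in wild type, while the arrays of SEC3A, XPO1B, NRPC1, RECQ4B and XIC overlap.

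In membrane traffic 5 of 6 named genes read lower without overlap (83.3%, against 82.9% of all 123 long genes), with a median of -0.54. SPI, a BEACH-domain protein needed for the shape of leaf hairs, read 7.10 and 6.86 in wrky43-1, against 7.62 and 7.69 in wild type (log2 difference -0.67, SE 0.14). SHRUBBY read 6.99 and 6.70 in wrky43-1 and 7.73 and 7.76 in wild type. The AP-2 adaptor subunit alpha-ADR, which collects cargo at the plasma membrane, had a log2 difference of -0.57. CEF, a SEC24-type subunit of the COPII coat that buds from the endoplasmic reticulum, had -0.50, and CLUB, a subunit of the TRAPPII tether needed to build the cell plate, had -0.40. SEC3A, of the exocyst tether, read 7.69 and 7.71 in wrky43-1 and 7.92 and 7.38 in wild type. The log2 difference, 0.05 (SE 0.21), becomes -0.02 when the array medians are made equal, so no direction is given for it.

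Motors and the cytoskeleton had the smallest median difference of the classes with more than 5 genes, -0.20 over 7 genes. This class also had the lowest median level of these classes, 5.98 against 7.19 to 7.30, and the part of level was not tested. At an unadjusted limma p under 0.05, 2 of the 7 were lower (28.6%, against 63.4% of all 123 long genes). The 5 genes for myosin XI, the actin motors that drive the streaming of organelles, ranged from -0.46 to 0.21. XIH (-0.46) and XIJ (-0.45) had the most negative differences of the 5, and XI-I and XIE had -0.20 each. XIC read 4.61 and 4.13 in wrky43-1 and 4.21 and 4.097 in wild type, so its positive difference rests on 1 mutant array and is -0.03 without wrky43-1 replicate 1. PIR121, a subunit of the SCAR/WAVE complex that starts actin branches, read 7.99 and 7.84 in wrky43-1 and 8.04 and 8.14 in wild type. SPK1, the exchange factor that switches on ROP GTPases and through them the same complex, read 7.48 and 7.67 in wrky43-1, against 8.25 and 8.38 in wild type. At -0.74 (SE 0.14) it stood below the other genes of this class, a contrast that was not tested.

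Both peptidase genes read lower, as did 91.9% of all 123 long genes. TPP2, which trims peptides in the cytosol, had the highest readings of the set, 9.83 and 9.89 in wrky43-1 and 10.36 and 10.34 in wild type (log2 difference -0.49, SE 0.12). SPP, which cuts the transit peptide off proteins entering the chloroplast, had -0.56. Of the 6 remaining named genes 5 read lower without overlap (83.3%, against 82.9% of all 123 long genes). RST1, needed for cuticular wax and embryo growth, read 6.38 and 5.84 in wrky43-1 and 6.84 and 6.78 in wild type, with the mutant arrays further apart than those of the wild type. SWEETIE, needed for normal sugar metabolism, had -0.57. PHYLLO, of phylloquinone synthesis, had -0.53. RXW8 had -0.57, SETH5 had -0.40, and XPO1B, an exportin that carries proteins out of the nucleus, overlapped at 0.03 and turned to -0.04 when the array medians were made equal.

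For the 10 genes with a positive difference, the log2 difference lay between 0.004 and 0.34. AT1G58050 read 3.42 and 3.18 in wrky43-1, against 2.97 and 2.93 in wild type (log2 difference 0.34, SE 0.14, limma adjusted p = 0.342). AT4G19520 (0.18) and AT2G08986 (0.15) were the other genes with both mutant arrays above both wild-type arrays. XIC (0.21), AT3G10180 (0.10), AT5G40450 (0.08), SEC3A (0.05), XPO1B (0.03), AT5G39770 (0.01) and AT3G60961 (0.004) overlapped. Of these 10, SEC3A and XPO1B were listed above 5, and the other genes had mean values below 5 on the array.

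The difference of a long gene went with its level on the array. Over the 123 genes Spearman's rho between mean level and difference was -0.53, a description over genes that share the same 4 arrays. The 14 genes with a mean level up to 4 had a median log2 difference of -0.06. At an unadjusted limma p under 0.05, 0 of the 14 were lower. Of the genes of 1000 to 2000 bp at that level only 2.88% were, so the 0 says little. Long genes between 4 and 5 (7 genes) had a median of -0.22 and those between 5 and 6 (7 genes) had -0.45. The 26 genes between 6 and 7 had -0.42, and the 69 above 7 had -0.56, with 68 of the 69 lower without overlap. The highest readings, after TPP2, were those of AT4G28080, AT1G02080, AT3G50370 and AT5G47690. AT4G28080 read 9.34 and 9.51 in wrky43-1, against 10.14 and 10.13 in wild type (log2 difference -0.70, SE 0.13), and AT5G47690 had a log2 difference of -0.49. The lowest readings of the set were those of AT3G60961, AT2G34110, AT2G34100, AT3G48770 and AT5G40450, all between 1.82 and 2.82 on every array, with differences between -0.24 and 0.08. Genes of 1000 to 2000 bp went the other way, with higher differences at higher levels. At levels up to 4 the median of 3399 such genes was -0.01. It was 0.07 at 4 to 5, 0.15 at 5 to 6 and 0.15 at 6 to 7. Above 7 the median of 627 such genes was 0.19, with 99 of the 627 lower and 383 higher without overlap.

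**Figure D3:**
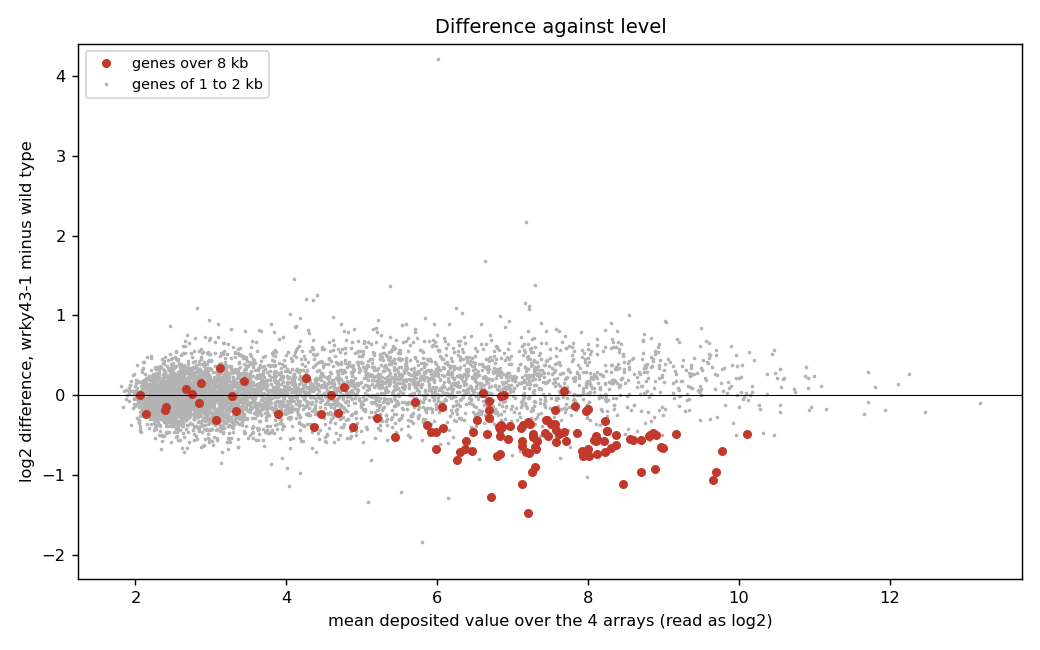
Log2 difference, wrky43-1 minus wild type (vertical axis), against the mean deposited value over the 4 arrays (horizontal axis) for the 123 genes over 8 kb (large points) and 5588 genes of 1000 to 2000 bp (small points). Above a level of 7 the long genes have a median of -0.56 and the shorter ones of 0.19.

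Above 4000 bp the difference also went with length. Below that it followed no steady order: the median log2 difference was -0.003 for the 3067 nuclear genes up to 1000 bp, 0.03 for the 5588 of 1000 to 2000 bp and -0.02 for the 6139 of 2000 to 4000 bp. It was -0.16 for the 1150 genes of 4000 to 6000 bp, -0.28 for the 281 of 6000 to 8000 bp and -0.47 above 8000 bp, and in these longer ranges the shares with both mutant arrays below were 49.0%, 70.5% and 82.9%. Over all 16348 nuclear genes Spearman's rho between span and difference was -0.19. The 3 longer ranges also differ in level, with a median of 6.16, 6.89 and 7.21, and the part of level in the order was not tested. Within the long genes Spearman's rho between span and difference was -0.29, and between span and level it was 0.10. The median was -0.40 for the 29 genes up to 8500 bp, -0.50 for the 23 up to 9000 bp, -0.49 for the 27 up to 10000 bp and -0.37 for the 23 up to 13000 bp. It was -0.71 for the 21 longer ones, all of which read lower without overlap, and the medians of the shorter ranges followed no steady order. Of the 3 longest genes, AT1G48090 read -1.11, AT4G17140 (23544 bp) -0.71 and SHRUBBY (20157 bp) -0.90. AT1G58602, of 19695 bp, was listed below 3 on every array and had -0.10.

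At the limit of 8000 bp the values were mixed. Just inside it, AT4G19520 (8012 bp) had 0.18 and AT4G14970 (8022 bp) had -0.40. Just outside, FU (7990 bp), a kinase of the FUSED family, had 0.09 and AT3G57570 had -0.40. With the limit at 6000 bp the median of 404 genes was -0.33, and with the limit at 10000 bp that of 44 genes was -0.57.

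**Figure D4:**
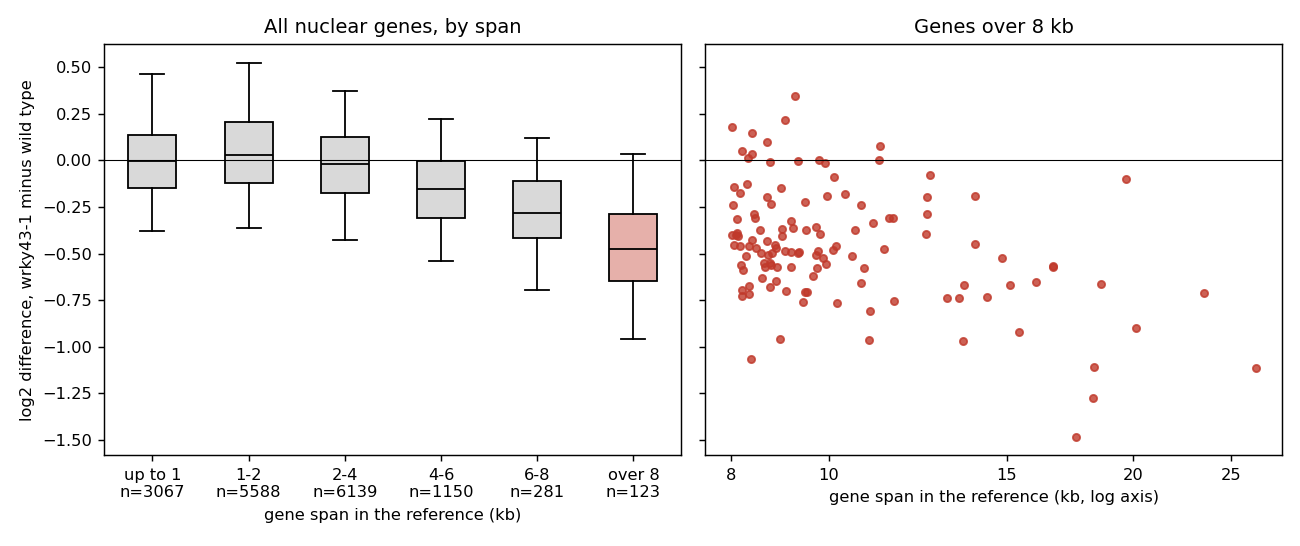
Left, log2 differences of all nuclear genes by span in the reference (box: quartiles and median; whiskers: 5th to 95th percentile); right, each of the 123 genes over 8 kb against its span on a log axis. The median lies between -0.02 and 0.03 in the ranges up to 4 kb, is -0.16 at 4 to 6 kb and -0.47 over 8 kb, and the 21 genes over 13000 bp have a median of -0.71.

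By other properties of the long genes the medians lay closer together. Those by chromosome lay between -0.49 and -0.46, with 16 to 32 genes each. Genes with 1 annotated transcript (27 genes) had a median of -0.39, those with 2 or 3 (60 genes) -0.50 and those with 4 or more (36 genes) -0.49. Their median levels were 6.69, 7.24 and 7.28 in the same order. The 33 named genes had -0.53 and the 90 known by a locus code only had -0.46. In the reference 46 of the 123 overlap another gene, and the sources used here do not say whether the probe sets read 1 strand. Those 46 had a median difference of -0.40 and a median level of 6.68. The 77 without overlap had a median difference of -0.50 and a median level of 7.45. The part of level in the medians by transcript number and by overlap was not tested. In 3 cases long genes stood side by side on a chromosome, and both of each pair read lower, as did 91.9% of all 123 long genes. The pairs were AT3G24870 (-0.66) and AT3G24880 (-0.96), alpha-ADR (-0.57) and AT5G22780 (-0.51), AT5G24710 (-0.50) and SHRUBBY (-0.90).

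Of the shorter genes on the functional lists, 9 with a name were measured. On lists that also hold a long gene, the nucleosome-moving ATPase CHR17 (6480 bp) read 7.25 and 7.12 in wrky43-1 and 7.12 and 6.80 in wild type, with overlap, and CHR23 (4950 bp) had a log2 difference of -0.17, where INO80 and ATRX had -0.55 each. FANCM and BRCA2B, for DNA repair, had -0.34 and -0.25, and TPLATE, for endocytosis, had -0.22. Of these 5 genes 4 read lower, 1 of them at an unadjusted p under 0.05. The lists of nuclear pore genes and of metabolic enzymes held 0 long genes. From them NUP1 (6209 bp) and NUP155 (7037 bp), of the nuclear pore, had log2 differences of -0.90 and -0.43, and the genes named PWD, for starch phosphorylation, had -0.30 and -0.32, all 4 without overlap. None of the 9 shorter genes passed the adjusted limma threshold (0 of 9, and 4 of 9 at an unadjusted p under 0.05). At that unadjusted p 16.7% of all nuclear genes of 4000 to 6000 bp were lower, and 36.7% of those of 6000 to 8000 bp. In these ranges 49.0% and 70.5% read lower without overlap, and of the 9 shorter genes only CHR17 overlapped. Whether the counts of the shorter genes are particular to their lists was not tested. The lists of ubiquitin ligases and callose synthases had 0 named genes with a value.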

How the data were processed

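Total RNA of 4 seed samples was obtained by hot borate extraction and biotin-labelled, per the labels. The deposited table lists 38408 probe sets with values from 1.18 to 14.27, which were taken to be log2. How the authors normalized and summarised the probes is not stated in any source used, detection calls were not used, and 4 arrays set the precision. Genes and spans come from the platform annotation (16722 probe sets with 1 gene and 759 with several) and from RefSeq TAIR10.1; no coordinates are printed, since no source used here names the build of the array. Array medians differed by at most 0.088, so values were used as deposited. The comparison was a two-sided limma test (version 3.58.1, lmFit then eBayes, R 4.3.3). Its p-values were adjusted by Benjamini-Hochberg across the whole table, and degrees of freedom were 2 (residual) and 2.34 (prior). Its script was run on simulated data with planted log2 differences of 1, 2 and 4, which does not cover smaller differences. Alternatives covered normalization, the filter on low values, the variance prior, array weights, the replicate block, single arrays left out and the span limit. The members, lists and tests were chosen with earlier results of these data known.

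Named with values are the 10 most negative genes without overlap, every gene with a positive difference, the 5 highest and 5 lowest readings, the 3 longest, 2 genes on each side of 8000 bp, and up to 3 per class with the highest readings; other genes were named after their values had been seen. The reference has no product names, so classes were set for named genes only. Of the 123 genes 1 had 2 probe sets, 0 shared values with another probe set and 115 lay above the lowest 30 percent of probe sets by level. Same-numbered samples were not paired by the labels; their deviations from the group means correlated at -0.03 over probe sets.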

Additional observations from a re-analysis of the deposited data

How the results depend on the processing

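Of the long genes 0 passed as lower in the reported fit, 4 with an intensity trend and 0 in the other settings, and 0 passed as higher in any setting. Their median of -0.47 stayed within -0.55 to -0.43 in every setting that kept the 8000 bp limit, and was -0.33 over 6000 bp and -0.57 over 10000 bp, which are other sets of genes. The count lower at an unadjusted p under 0.05, 78, was 72 with the replicate block, a fit in which the numbers are not known to pair the samples, and 45 to 58 without single arrays, where 1 residual degree of freedom is left and the single array of a genotype is taken to vary as the pair does. Over all probe sets, 1 higher and 0 lower as reported, there were 2 higher after centring the arrays, 0 with the replicate block, 74 higher and 30 lower with an intensity trend, 7 and 2 with identical probe sets left out, and 0 to 0 in both directions without single arrays. The cause was not tested. Of the 46 genes named by the rule, 39 kept their sign in every setting. With the arrays centred SEC3A read -0.023, XPO1B -0.041, AT5G39770 -0.062 and AT3G60961 -0.069, and XPO1B read -0.019 with quantile normalization. Without single arrays XIC ranged from -0.027 to 0.46, AT3G10180 from -0.069 to 0.26, AT5G40450 from -0.028 to 0.19, SEC3A from -0.22 to 0.32, XPO1B from -0.062 to 0.13, AT5G39770 from -0.080 to 0.10 and AT3G60961 from -0.24 to 0.25. Centring moved the median difference of all probe sets by -0.07. Length of the spliced transcript in place of span was not run, since no transcript lengths were used here; signal over background is unknown.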

Other observations

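A few long genes varied more within a genotype than between the genotypes, and their differences are close to uninformative. AT1G72270 read 5.16 and 4.00 in wrky43-1 and 4.71 and 4.90 in wild type (log2 difference -0.22, SE 0.41). It is the only long gene with a second probe set, which read 3.75 and 3.84 in wrky43-1 and 3.51 and 3.29 in wild type, a log2 difference of 0.40 (SE 0.14), so its probe sets differ in sign. AT4G38780 read 4.15 and 5.02 in wrky43-1 and 4.33 and 4.85 in wild type, lower in replicate 1 of both genotypes. AT1G58060 read 6.86 and 6.44 in wrky43-1 and 6.51 and 6.94 in wild type. AT5G35180 and AT5G15070, with readings between 6.70 and 7.09 on all arrays, had differences of -0.01 and -0.001, where 21 of the 26 long genes with a mean level between 6 and 7 read lower without overlap.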
